A study of Mus musculus with 14 samples.

Results

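Gpnmb, a transmembrane glycoprotein of phagocytes and pigment cells, was described together with the galectin genes Lgals1, Lgals3 and Lgals9, the galectin-binding protein gene Lgals3bp, and the genes of the MiT/TFE transcription factors Mitf, Tfeb, Tfe3 and Tfec in single cells of the mouse spinal cord. The 9 genes were taken by symbol from the 55335 features of the count tables. Gpnmb was chosen by its measured rise in SOD1 against nTg microglia. The others were chosen as related genes, with earlier results of these data known. Spinal cord cells of mice at P115-120 day were sequenced in droplets in 14 libraries, and the design asks what the myeloid receptor Clec7a does in microglia of a model of amyotrophic lateral sclerosis. SOD1 (3 libraries, strain B6SJL-Tg(SOD1*G93A)1Gur/J) carried a mutant human SOD1 transgene. SOD1_Clec7aKO (4 libraries, labelled SOD1G93A/Clec7a KO) carried the transgene and lacked Clec7a. Clec7aKO (4 libraries, B6.129S6-Clec7atm1Gdb/J) lacked Clec7a without the transgene, and nTg (3 libraries, strain given as nTg) had neither. The deletion is carried by every cell, and the strains of the groups differ, also between groups with and without the transgene, so that strain background cannot be told apart from Clec7a deletion or from the transgene. The labels name each sample without saying outright that each came from 1 animal. P-values refer to the spread between these samples, which the tests of differences estimate in part across genes.

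Gpnmb sits in lysosomal and plasma membranes, can be shed by ADAM proteases, and is widely used as a marker of lipid-laden and lysosome-rich macrophages. Galectins are lectins that bind beta-galactosides on glycoproteins. Lgals3 (galectin-3) gathers on damaged lysosomes, Lgals1 and Lgals9 signal to immune cells, and Lgals3bp is a secreted ligand of galectins. The MiT/TFE factors are basic helix-loop-helix leucine zipper proteins. When mTORC1 signalling at the lysosome falls, TFEB and TFE3 move into the nucleus and drive lysosomal and autophagy genes. MITF directs pigment cells and osteoclasts, and GPNMB is among its known targets. Activity of these factors is set largely by phosphorylation and location, which RNA counts do not measure.

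On the GRCm38 build (GENCODE vM21), Gpnmb lies at chr6:49036546-49070929, Mitf at chr6:97807052-98021349 and Tfec at chr6:16833373-16898441. The galectin genes lie at chr15:78926725-78930465 (Lgals1), chr14:47367751-47386160 (Lgals3) and chr11:78962974-78984946 (Lgals9), and Lgals3bp at chr11:118392751-118402092. Tfeb lies at chr17:47737030-47792419 and Tfe3 on the X chromosome at chrX:7762560-7775202. RefSeq windows (GRCm38.p6) of the 250 bases before the transcription start were found for 8 of the 9 genes, in 13 windows, the other gene being Lgals1. They were searched on both strands for letters that MiT/TFE factors are known to bind. These were the E-box CACGTG with its longer form TCACGTG. The others were CATGTG with its longer form TCATGTG, known as the M-box. All of these also match the general E-box CANNTG. The form CACGTG was in 0 of the 13 windows, against 6.02% of 32851 RefSeq windows, and TCACGTG in 0, against 3.13%. CATGTG was in 2 of the 13 (12.3% of all windows), TCATGTG in 1 (3.25%) and CANNTG in 7, each of another gene (66.2%). These matches describe letters only. The stretch before Gpnmb (plus strand, chr6:49036268-49036517) is shown because the gene is a known MITF target, with its single CANNTG match in capitals, 58 bases before the start. The stretches of Lgals3bp (minus strand, chr11:118401971-118402000) and Lgals9 (minus strand, chr11:78985089-78985118) are shown for their M-box and CATGTG matches, in capitals, 30 and 182 bases before the start. Starts are those of RefSeq. That of Lgals3bp (chr11:118401959) lies inside the GENCODE gene, and so does its stretch.
Gpnmb: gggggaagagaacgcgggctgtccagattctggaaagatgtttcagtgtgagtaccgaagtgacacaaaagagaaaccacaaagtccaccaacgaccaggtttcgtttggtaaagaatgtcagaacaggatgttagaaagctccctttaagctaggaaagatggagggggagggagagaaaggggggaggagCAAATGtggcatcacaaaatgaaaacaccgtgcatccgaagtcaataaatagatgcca
Lgals3bp: agcagcctctgTCATGTGttttctgaaaat
Lgals9: acgcctgctggcCATGTGactggttctctg

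The libraries held 108892 barcodes, of which 89483 passed filters, with 2555 to 10233 cells and 28819852 to 141204910 unique molecular identifiers (UMIs, counts of captured RNA molecules) per library. Any pair of libraries shared at most 44 barcodes. Clusters were named from marker genes as microglia-like (52064 cells), endothelial-like (11380), ependymal-like (7659), astrocyte-like (5816) and 7 smaller classes. "Like" is left out below. Among the microglia-like cells, 1 cluster of 2856 held all 12 microglia markers, but its leading genes against the other clusters (Elane, Hbb-bs, Hbb-bt and others of blood cells) go against that name, and its median UMI count was 0.330 of its samples'. It made up 10.6% of microglia in nTg, 7.67% in Clec7aKO, 5.89% in SOD1 and 2.86% in SOD1_Clec7aKO, and is counted in the values below. By the same view 2 other clusters had 1 marker of another class and none of microglia among their 10 leading genes, that led by Gpnmb (10189 cells, with Ms4a7 of border-associated macrophages) and that led by Ifnb1 (10666 cells, with Ccl5 of T and NK cells). Both held all 12 microglia markers. Results without the cluster led by blood-cell genes, and without all 3, come from alternatives chosen after seeing the data. The tissue was labelled as holding all cell types, and no cluster took its name from oligodendrocyte markers. Clec7a itself was at 885, 1031 and 1029 scaled CPM (UMIs per 1000000 UMIs of a class, scaled between libraries) in microglia of SOD1, at 28.2 to 86.3 in nTg, at 2.10 to 3.70 in SOD1_Clec7aKO and at 0.74 to 2.49 in Clec7aKO. Clec7a was thus low in all 8 libraries labelled as lacking it.

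Across cell classes, Gpnmb, Lgals3 and Lgals3bp had their highest means with the transgene in microglia. Only for Lgals3bp was the next class farther away than the sum of both SDs. Lgals1 had its highest mean with the transgene in astrocytes. In endothelial cells Lgals9 was above its level in microglia of the same library, at 120% to 148% with the transgene. It was at 112% to 145% without. Tfeb there was at 125% to 172% with the transgene and at 82.3% to 121% without. Tfe3 was highest in macrophages and microglia. Over all 14 libraries, microglia made up 60.9% of the cells of named classes. They held 98.7% of these cells' 228881 Gpnmb UMIs, 94.7% of those of Lgals3, 94.3% of Lgals3bp, 82.2% of Lgals1 and 81.2% of Lgals9. Among the factors they held 89.2% of the UMIs of Tfe3, 85.1% of Mitf, 70.5% of Tfeb and 89.2% of the 528 UMIs of Tfec. These shares also depend on depth. Median UMIs per cell were 10136 in microglia, 8785 in ependymal cells, 6645.5 in endothelial cells and 4518.5 in astrocytes. A UMI share above 60.9% is thus not by itself an excess. The levels that follow are CPM of the summed UMIs of a class in a library, as mean ± SD over libraries with at least 20 cells. Means are called apart here only where they lie farther from each other than the sum of both SDs. This rule leaves aside that the classes share their libraries.

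**Figure D1:**
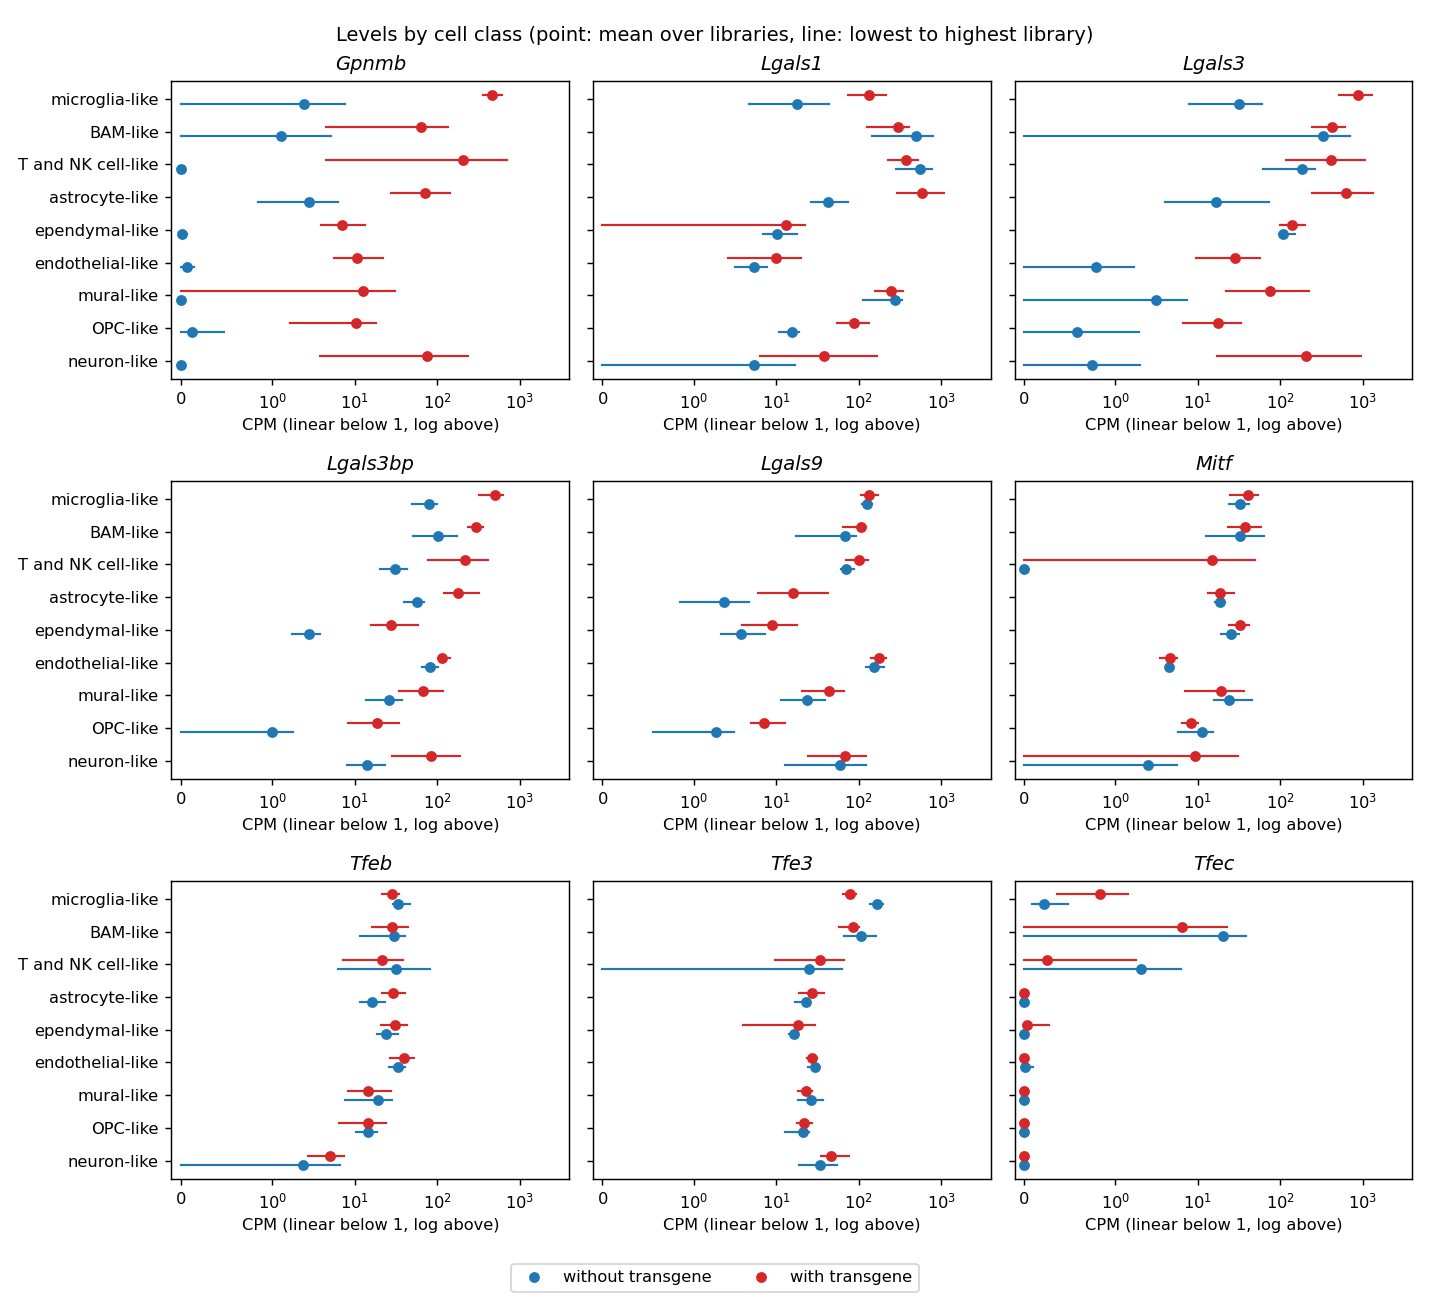
Level of each gene by cell class. The horizontal axis is CPM, linear below 1 and logarithmic above. Points are means over libraries and lines run from the lowest to the highest library, red for the 7 libraries with the transgene and blue for the 7 without. OPC, oligodendrocyte precursor; BAM, border-associated macrophage. Gpnmb in microglia averages 457 with and 2.43 without the transgene, while Mitf and Tfeb keep similar levels in most classes.

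In the 7 transgenic libraries Gpnmb was at 457 ± 94.8 CPM in microglia. The next classes were T and NK cells (205 ± 248), neurons (75.3 ± 96.4, 6 libraries), astrocytes (71.9 ± 40.8) and border-associated macrophages (64.3 ± 47.6). Mural cells (12.5), endothelial cells (10.6), oligodendrocyte precursors (10.4) and ependymal cells (6.98) followed. Each step in this order was within the spread of its neighbours. Without the transgene the highest means were 2.83 ± 1.86 in astrocytes and 2.43 ± 2.61 in microglia, and no Gpnmb UMI was found in mural cells or neurons. The summed level of 12 microglia markers, as a percentage of that in microglia of the same library, is given beside these levels. With the transgene it was 28.3% in T and NK cells (Gpnmb above it in 4 of 7 libraries), 10.8% in neurons (2 of 6), 64.1% in border-associated macrophages (0 of 7), 8.05% in mural cells (1 of 7) and 2.26% in oligodendrocyte precursors (2 of 7). Its part in the levels of these classes was not tested.

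Lgals3 with the transgene was at 877 ± 271 CPM in microglia, 626 ± 398 in astrocytes, 422 ± 124 in border-associated macrophages and 416 ± 334 in T and NK cells. Without it the order of classes with at least 3 libraries was another: 331 ± 233 in border-associated macrophages, 181 ± 107 in T and NK cells (3 libraries), 108 ± 20.1 in ependymal cells and 31.5 ± 19.5 in microglia, with ependymal cells apart from microglia. Neutrophils, in 2 libraries, were higher than all of these, at 798 ± 7.4. Ependymal cells, which line the central canal, thus held Lgals3 in every group, at 137 ± 34.5 with the transgene. Lgals3bp with the transgene was at 509.8 ± 101.7 CPM in microglia, apart from the next class, border-associated macrophages at 292 ± 42.4. Without the transgene border-associated macrophages (102), endothelial cells (81.6), microglia (79.8) and astrocytes (56.5) led for Lgals3bp, each within the spread of its neighbours in this order, and endothelial cells were apart from astrocytes.

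Lgals1 was at 583 ± 285 CPM in astrocytes with the transgene and at 42.2 ± 15.04 without. It was at 134 ± 53.4 and 17.97 ± 16.3 in microglia. Mural cells, the contractile cells of vessels, held Lgals1 at 246 ± 72.5 and 276 ± 74.5 with and without the transgene. Lgals9 was at 176 ± 29.2 CPM in endothelial cells and 134 ± 26.8 in microglia with the transgene, and at 155 ± 28.8 and 125 ± 11.9 without. Astrocytes, ependymal cells and oligodendrocyte precursors were lowest for Lgals9, at 16.1, 8.82 and 7.04 with the transgene and at 2.35, 3.76 and 1.88 without.

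Mitf was at 40.5 ± 10.4 CPM in microglia, 37.0 ± 10.97 in border-associated macrophages and 32.4 ± 6.88 in ependymal cells with the transgene, and at 4.53 ± 0.79 in endothelial cells, apart from the class above. Tfeb with the transgene ranged from 39.6 ± 10.4 in endothelial cells to 14.5 ± 6.34 in mural cells. No neighbours in this order were apart, but these ends of it were, and neurons (5.06 ± 2.12) lay apart below mural cells. Tfe3 with the transgene was at 86.3 ± 13.6 in border-associated macrophages and 78.0 ± 10.3 in microglia, apart from all other classes. Without it, Tfe3 was at 169 ± 23.1 in microglia, apart from 106 ± 35.2 in border-associated macrophages.

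In microglia of SOD1 against nTg, the contrast for which Gpnmb was chosen, all values are a description with no test. Levels between groups are given as scaled CPM, that is CPM after library factors that set the typical gene equal. Gpnmb was at 389.9, 504 and 525 scaled CPM in the 3 SOD1 libraries and at 0.69, 0 and 1.79 in nTg (23, 0 and 23 UMIs), with a count of 3 UMIs standing for 0.151 in the library at 0. Lgals3 was at 1155, 864 and 856 against 21.4, 6.55 and 37.6. Lgals3bp was at 351, 739 and 605 against 63.8, 42.1 and 84.1. All 3 genes were far higher in every SOD1 library than in any nTg library. Lgals1 was at 104, 248 and 91.3 in SOD1 and at 31.6, 6.05 and 8.27 in nTg, and Lgals9 at 114.7, 139 and 151 against 104, 90.9 and 105. Neither of these overlapped between the groups. Among the factors, Mitf was at 50.8, 62.2 and 52.9 in SOD1 and at 33.4, 30.1 and 31.0 in nTg. Tfe3 ran the other way, at 99.2, 89.1 and 89.8 against 152, 148 and 149.6. Tfeb overlapped, at 24.2 to 32.4 against 25.2 to 27.3. Tfec was near the limit of detection, at 0.75 to 1.62 against 0.08 to 0.40. Gpnmb was chosen for this rise, and Tfec passed the filter on low counts only through libraries with the transgene, so neither is counted. Of the others, Lgals1, Lgals3, Lgals3bp, Lgals9 and Mitf were higher and Tfe3 was lower without overlap. Of the 16694 genes in the fit, 29.3% were higher and 24.7% lower without overlap. With libraries scaled to total UMIs alone, Lgals9 overlapped (107 to 134 CPM against 109 to 129) and Tfeb was lower without overlap (21.5 to 30.2 against 31.2 to 32.7). Of the same genes, Lgals1, Lgals3, Lgals3bp and Mitf were then higher and Tfeb and Tfe3 lower, against 13.8% and 47.9% of all genes.

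**Figure D2:**
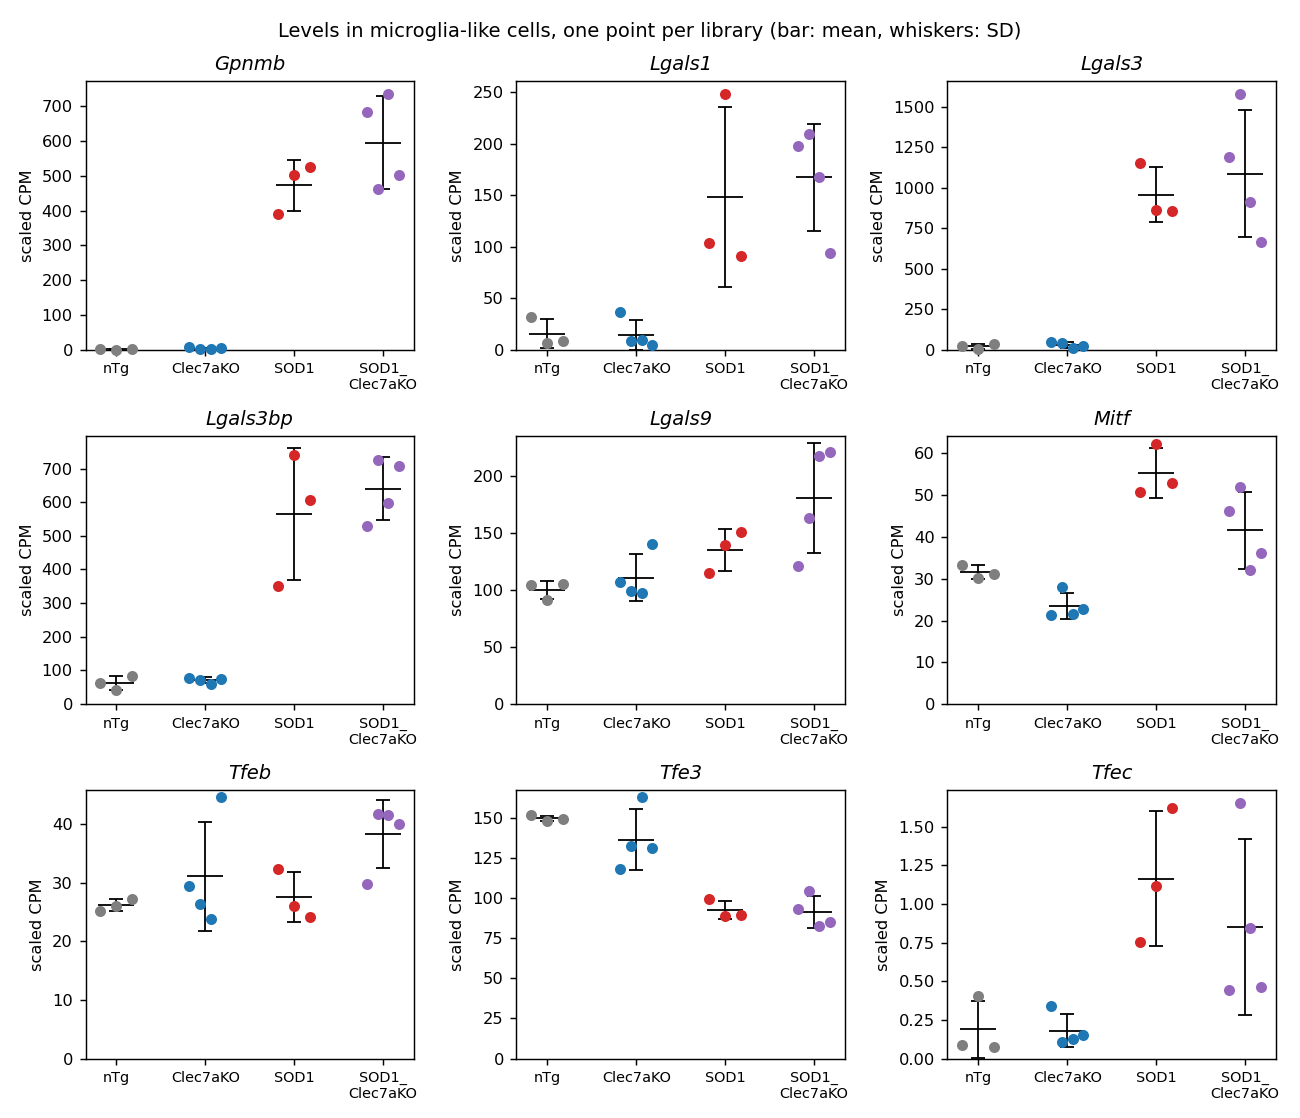
Levels in microglia-like cells by group. Each panel is a gene, the vertical axis is scaled CPM on a linear scale that starts at 0 and differs between panels, points are libraries, bars are means and whiskers SDs. Gpnmb, Lgals1, Lgals3 and Lgals3bp are higher and Tfe3 is lower in all 7 transgenic libraries than in the 7 others. Tfec also separates them, narrowly and near the limit of detection. Mitf is higher with the transgene within each Clec7a genotype, and Tfeb overlaps.

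Without Clec7a, the transgene went with higher Gpnmb, Lgals1, Lgals3 and Lgals3bp, and lower Tfe3. It also went with higher Lgals9 and Mitf, though these 2 results depended on the library scaling given below. These changes were tested between SOD1_Clec7aKO and Clec7aKO, not the contrast that chose Gpnmb though also known from earlier results. The test was edgeR's quasi-likelihood test over all genes, and adjusted p-values (Benjamini-Hochberg) under 0.05 were called. Of the 8 genes other than Tfec, 6 rose and Tfe3 fell, where 25.6% of all 16694 genes were called higher and 21% lower. Gpnmb is among the 6, and the genes were chosen with earlier results known. This count beside the shares, and those below, are thus a description. Gpnmb was at 683, 463, 736 and 501 scaled CPM in SOD1_Clec7aKO and at 6.38, 1.91, 0.50 and 3.25 in Clec7aKO. Its log2 fold change was 7.58 (SE 0.70, adjusted p = 1.5e-06). The lowest library with the transgene was thus far above the highest without. Without the cluster led by blood-cell genes 6 of the 8 genes were again called higher and 1 lower, with Gpnmb at 7.56, Lgals3 at 5.18, Lgals9 at 0.70, Mitf at 0.81, Tfe3 at -0.59 and Tfeb at 0.31 (edgeR adjusted p = 0.17 for Tfeb). Without the Gpnmb-led cluster these numbers were again 6 and 1, with Gpnmb at 8.10, Lgals3 at 5.36, Mitf at 0.76 and Tfe3 at -0.56. Without all 3 clusters they were 6 and 1, with Gpnmb at 9.03, Lgals3 at 6.01, Lgals9 at 0.61, Mitf at 0.84, Tfe3 at -0.68 and Tfeb at 0.28 (edgeR adjusted p = 0.22 for Tfeb). The counts without these clusters stand without the share of all genes called, so that only the log2 changes are read.

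Galectin-3 RNA had the next largest change. Lgals3 was at 1191, 1582, 912 and 664 scaled CPM against 49.1, 39.9, 10.6 and 20.0, a log2 fold change of 5.18 (SE 0.57, adjusted p = 7.0e-06). Lgals3bp was at 529, 726, 596 and 708 against 77.9, 70.7, 58.9 and 75.2 (log2 fold change 3.18, SE 0.25, adjusted p = 3.7e-07). Its libraries were more alike than those of Lgals3. Lgals1 was at 198, 209.7, 168 and 94.0 against 36.3, 8.21, 9.14 and 4.48 (log2 fold change 3.50, SE 0.66, adjusted p = 0.00069), with Clec7aKO_1 well above the other controls. Lgals9 was at 121, 163, 217 and 221 against 107, 99.1, 97.0 and 141 (log2 fold change 0.70, SE 0.19, adjusted p = 0.0073). It was the only called gene of the 8 whose groups overlapped. Without overlap, 5 of the 8 genes were higher and 1 lower, against 21.2% and 15.5% of all genes. With libraries scaled to total UMIs alone, 4 were higher and 1 lower, against 9.66% and 34.9%, and Mitf overlapped too.

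Of the MiT/TFE factors, Mitf rose under this scaling and Tfe3 fell. Mitf was at 46.1, 52.0, 32.0 and 36.1 scaled CPM in SOD1_Clec7aKO and at 21.4, 28.0, 21.6 and 22.8 in Clec7aKO (log2 fold change 0.83, SE 0.15, adjusted p = 0.00057). Tfe3 was at 93.2, 104.7, 82.8 and 85.0 against 118, 133, 163 and 131, and fell by 0.58 on the log2 scale (SE 0.12, adjusted p = 0.0016). Neither overlapped between the groups. Tfeb was at 29.7, 41.8, 41.6 and 40.0 against 29.5, 26.3, 23.8 and 44.7, with a log2 fold change of 0.30 (SE 0.18, adjusted p = 0.18). Clec7aKO_4 held the highest Tfeb level of all 8 libraries, and without it the change was 0.52 with an adjusted p of 0.0093 (edgeR's quasi-likelihood test). Tfec was at 0.44 to 1.66 scaled CPM in SOD1_Clec7aKO and at 0.10 to 0.34 in Clec7aKO, on 8 to 98 and 2 to 12 UMIs in a library. It passed the filter on low counts only through libraries with the transgene, so that it had to differ, and is given as values with no test.

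Library factors moved with the transgene. Their mean log2 value was 0.28 in nTg, 0.22 in Clec7aKO, -0.17 in SOD1 and -0.30 in SOD1_Clec7aKO. With libraries scaled to total UMIs alone, the median log2 change of all genes was -0.51 instead of 0.00, and all calls split into 1907 higher and 7826 lower instead of 4277 and 3500. Mitf then changed by 0.32 (adjusted p = 0.12) and Lgals9 by 0.18 (adjusted p = 0.32), so that the calls of Mitf and Lgals9 depended on this scaling, and 4 of the 8 genes were still called higher and 1 lower. Tfe3 lies on the X chromosome, and more Xist than Ddx3y UMIs were found in 2 libraries of nTg, 1 of Clec7aKO, 0 of SOD1 and 1 of SOD1_Clec7aKO. With this as a covariate the log2 change of Tfe3 was -0.57 (adjusted p = 0.0024).

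For loss of Clec7a, Gpnmb, chosen by its SOD1 and nTg values, and Tfec, limited by its filter, are given as values with no test. None of the other genes changed past the threshold, with or without the transgene. Between SOD1_Clec7aKO and SOD1, edgeR and DESeq2 each called 0 of these. Mitf and Tfeb had an unadjusted p under 0.05 in edgeR, and DESeq2 gave 2 of all 9 genes such a p. All 9 overlapped between the groups. Over all genes edgeR called 0.018% and DESeq2 39 genes, and 9.08% did not overlap. The log2 difference was 0.33 (SE 0.56) for Gpnmb, 0.18 (SE 0.51) for Lgals3, -0.41 (SE 0.16, unadjusted p = 0.022, adjusted p = 0.43) for Mitf and 0.47 (SE 0.20, unadjusted p = 0.030, adjusted p = 0.43) for Tfeb, the p-values being those of edgeR. The SOD1 values of Gpnmb took part in its choice, so its difference is a description, and without the 3 clusters named above it was -0.33 (SE 0.69).

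Between Clec7aKO and nTg, again 0 of the genes other than Gpnmb and Tfec passed in edgeR and in DESeq2. Of these, only Mitf had an unadjusted p under 0.05 in edgeR, and DESeq2 gave 2 of all 9 genes such a p. Over all genes 0.03% were called. Mitf was lower without overlap, as 1.88% of all genes were, with a log2 difference of -0.43 (SE 0.16, edgeR unadjusted p = 0.021, adjusted p = 1.0). Gpnmb differed by 2.07 (SE 0.76) on 8 to 224 UMIs in a Clec7aKO library against 0 to 23 in nTg. Its low nTg values took part in its choice, so this difference is a description, and it was 1.02 (SE 1.18) without the 3 clusters. Mitf lies 31.4 Mb, Gpnmb 80.4 Mb and Tfec 112.6 Mb from Clec7a on the same chromosome, and the part of DNA flanking the deletion was not tested. The transgene effect without Clec7a minus that with Clec7a passed for 0 of the genes other than Gpnmb and Tfec (edgeR and DESeq2, 0 under an unadjusted p of 0.05 in each, and 0% of all genes in edgeR). For Gpnmb it was -1.73 (SE 0.94), given as a description, since its nTg and SOD1 values took part in its choice.

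The share of microglia with a Gpnmb UMI, after each cell was thinned at random to 2000 UMIs so that depth was equal, was 16.2% ± 3.45 (SD, n = 3) in SOD1 and 20.0% ± 2.83 (n = 4) in SOD1_Clec7aKO. It was 0.116% ± 0.168 in nTg and 0.0767% ± 0.0703 in Clec7aKO. In endothelial cells, given for comparison, the shares were 1.26% ± 0.368, 2.04% ± 1.62, 0% and 0%. Unthinned shares in microglia were 31.8%, 35.5%, 0.202% and 0.267% in the same order. Cells under 2000 UMIs were left out, 527 microglia in nTg, 509 in Clec7aKO, 428 in SOD1 and 346 in SOD1_Clec7aKO. For Lgals3 the thinned share of microglia was 44.2% ± 0.554 in SOD1, 47.7% ± 10.3 in SOD1_Clec7aKO, 1.52% ± 0.844 in nTg and 1.69% ± 0.5683 in Clec7aKO. In ependymal cells it was 19.5%, 24.4%, 17.5% and 19.9%, so that Lgals3 was held there at a like share in every group.

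Within transgenic microglia Lgals1, Lgals3 and Lgals3bp were higher and Tfe3 was lower in cells where Gpnmb was found. Lgals9, Mitf and Tfeb did not pass the test. Thinned cells were split in each of the 7 transgenic libraries into those with at least 1 Gpnmb UMI (6543 cells, 12.3% to 22.7% of a library) and those with none (28965 cells), and both sums were compared within libraries with edgeR over 9933 genes. A cell with no Gpnmb UMI at this depth may still express the gene. Before thinning, median UMIs were 10861 to 27820 in cells with and 8596 to 20884 in cells without a Gpnmb UMI. Of the 7 other genes that passed the filter on low counts, 3 rose and 1 fell, where 13.7% of all genes were called higher and 13.8% lower.

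**Figure D3:**
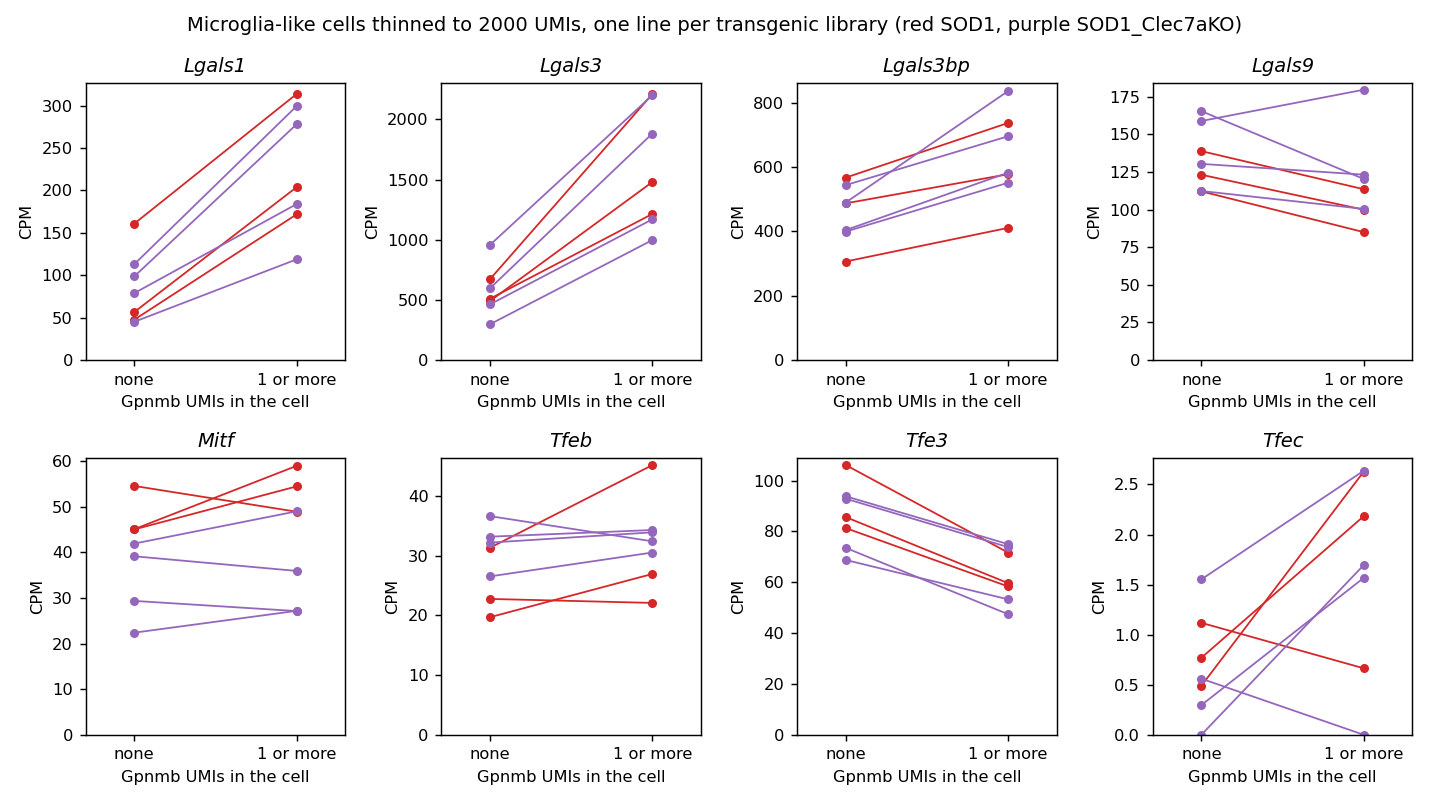
Levels in microglia-like cells without and with a Gpnmb UMI. The vertical axis is CPM after thinning to 2000 UMIs per cell, from 0, and each line joins both kinds of cell in 1 library, red for SOD1 and purple for SOD1_Clec7aKO. All 7 lines rise for Lgals1, Lgals3 and Lgals3bp and all 7 fall for Tfe3, while those of Mitf, Tfeb and Tfec cross.

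Lgals3 ran from 997 to 2211 CPM in cells with Gpnmb and from 296 to 956 in cells without, and was higher in 7 of 7 libraries (mean 1594 ± 505 against 568.1 ± 207). Its log2 difference was 1.57 (SE 0.05, edgeR adjusted p = 7.1e-37), and its ratio within libraries was 2.87 ± 0.45 (mean ± SD). In edgeR spread is estimated in part across genes, so p-values of the split do not measure a gene's spread over the 7 libraries alone. In SOD1_1 the values were 2211 against 671, and in SOD1_Clec7aKO_4, the transgenic library with the fewest microglia, 997 against 296. Lgals1 was at 224 ± 73.7 against 85.6 ± 42.0 (log2 difference 1.497, SE 0.06, edgeR adjusted p = 2.8e-29), higher in 7 of 7 libraries. Lgals3bp was at 627 ± 140 against 456 ± 91.7 (0.52, SE 0.04, edgeR adjusted p = 4.3e-17), also in 7 of 7. Higher in every library were 6.18% of all genes. Lgals9 did not follow, at 117 ± 30.5 against 134 ± 21.3 (log2 difference -0.09, edgeR adjusted p = 0.21), and was higher in 1 of 7 libraries. It passed as lower without SOD1_Clec7aKO_3 (adjusted p = 0.029), with libraries scaled to total UMIs alone (-0.17, adjusted p = 0.016) and after thinning to 4000 UMIs (-0.11, adjusted p = 0.0097).

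Tfe3 was at 71.7, 58.4 and 59.7 CPM in cells with Gpnmb of the 3 SOD1 libraries and at 106, 81.3 and 85.7 in cells without. In SOD1_Clec7aKO it was at 75.0, 73.9, 53.3 and 47.5 against 93.9, 92.9, 68.8 and 73.6. It was lower in 7 of 7 libraries, as 15.2% of all genes were, and fell by 0.34 on the log2 scale (SE 0.06, edgeR adjusted p = 2.5e-06). Within the Gpnmb-led cluster alone the difference was -0.24 (edgeR adjusted p = 0.055), and after thinning to 1000 UMIs it was -0.23 (adjusted p = 0.060). Mitf was at 43.1 against 39.6 CPM and higher in 4 of 7 libraries (log2 difference 0.19, edgeR adjusted p = 0.050). Tfeb was at 32.2 against 28.9 and higher in 5 of 7 (log2 difference 0.23, edgeR adjusted p = 0.051). Both lay at the threshold. Over the alternatives run the adjusted p ranged from 0.014 to 0.88 for Mitf and from 0.015 to 0.95 for Tfeb. Mitf passed without SOD1_2 (0.014), SOD1_Clec7aKO_1 (0.021) or SOD1_Clec7aKO_4 (0.047), and without cells holding a UMI of Mki67, Top2a or Cdk1 (0.042), in 4 of 16 alternatives. Tfeb passed in 6 of 16, without SOD1_2 (0.038), SOD1_Clec7aKO_2 (0.047) or SOD1_Clec7aKO_3 (0.015), without those cells (0.024), after thinning to 4000 UMIs (0.044) and with at least 3 Gpnmb UMIs against 0 (0.031). Tfec was too low to be tested, at 1.63 against 0.68 CPM.

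The levels of Lgals1, Lgals3 and Lgals3bp also grew with the number of Gpnmb UMIs in a cell. Cells with 0, 1, 2, 3 to 5 and 6 or more Gpnmb UMIs numbered 28965, 2803, 1116, 1461 and 1163. Over these bins Lgals3 averaged 568.1, 1126, 1559, 1832 and 2469 CPM, and Lgals1 85.6, 161, 189, 263 and 364. Lgals3bp averaged 456, 579.9, 609, 649.9 and 729.7. These means were higher in every successive bin. In single libraries this held in 7 of 7 for Lgals1, 6 of 7 for Lgals3 and 0 of 7 for Lgals3bp, which went up at the first and last step in 7 of 7 and at the others in 3 and 4. Tfe3 averaged 86.0, 70.4, 66.1, 49.5 and 56.4 CPM, lowest in cells with 3 to 5 UMIs. That lowest mean includes SOD1_Clec7aKO_4 at 8.77 CPM, on 1 Tfe3 UMI in 57 cells. Mitf averaged 39.6, 42.5, 43.9, 51.6 and 32.2, and Tfeb 28.9, 32.2, 29.3, 35.2 and 30.8, so that neither moved in 1 direction. The last Mitf mean rests on 1 to 22 UMIs in a library. Lgals9 lay between 112 and 134 in all bins.

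**Figure D4:**
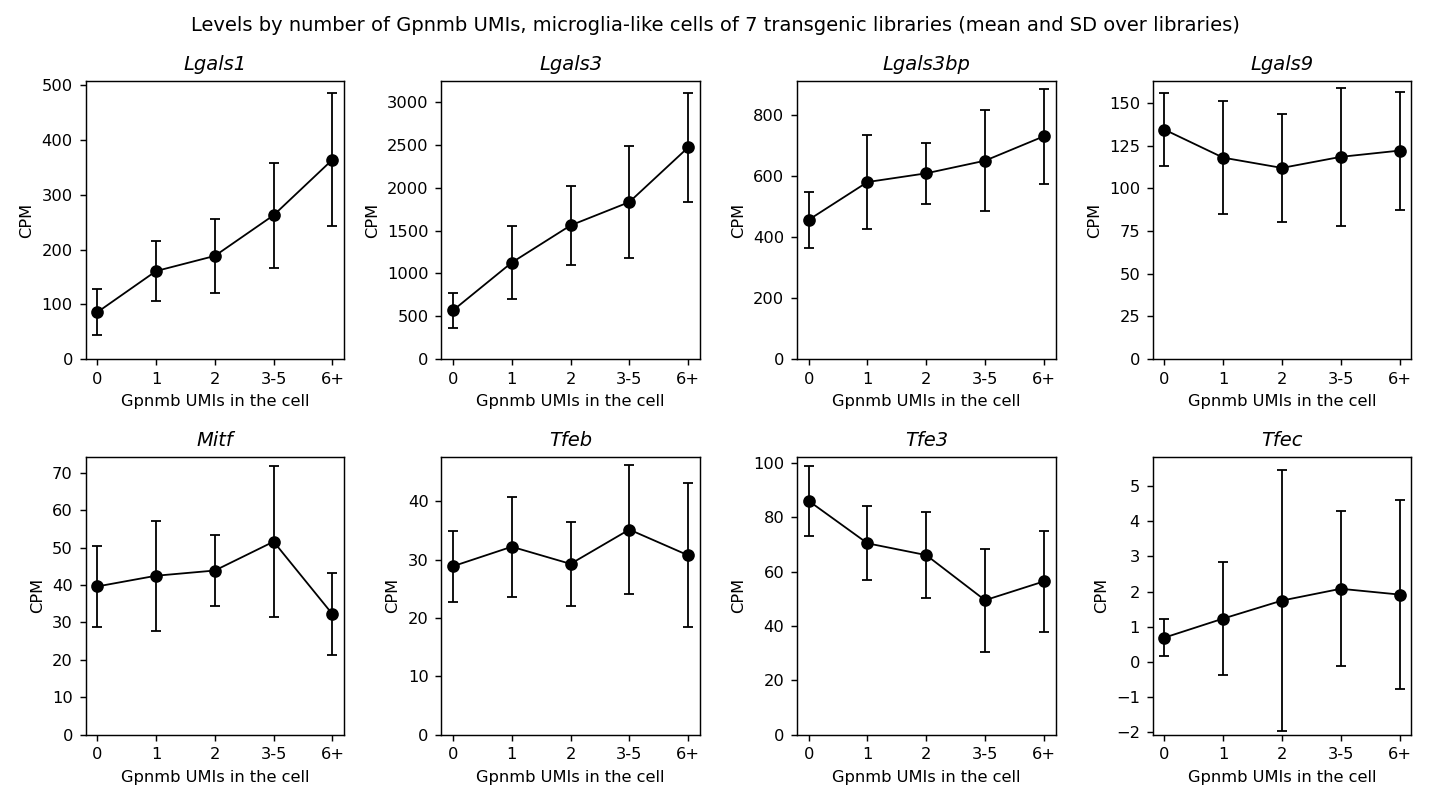
Levels by number of Gpnmb UMIs per cell in microglia-like cells of the 7 transgenic libraries, thinned to 2000 UMIs. The horizontal axis gives the Gpnmb UMIs, the vertical axis is CPM, points are means over libraries and whiskers SDs. Lgals3 goes from 568.1 to 2469 and Lgals1 from 85.6 to 364, and Tfe3 from 86.0 to 56.4.

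Microglia-like clusters are described with no test, since they were made from the same cells, though none of the 9 genes was among the genes used for clustering. In the transgenic libraries the cluster led by Gpnmb, Apoc4 and Lyz2 (10157 cells) had Gpnmb at 1050.3 ± 293 CPM, Lgals3 at 1225, Lgals3bp at 580.1, Mitf at 43.3, Tfe3 at 71.8 and Tfeb at 30.9. That led by Cxcl2 and Spp1 (8882 cells) had Gpnmb at 496 ± 231, Lgals3 at 1305, Mitf at 46.0 and Tfe3 at 68.8. These 2 clusters held 3218 and 2226 of the 6543 cells with a Gpnmb UMI. The interferon and chemokine cluster led by Ifnb1 and Cxcl10 (10437 cells) had Gpnmb at 72.0 ± 25.9, Lgals3 at 356, Mitf at 36.0 and Tfe3 at 89.0. The 2 clusters led by Crybb1 and P2ry12, genes of resting microglia, had Gpnmb at 28.2 and 18.9, Lgals3 at 231 and 114, Mitf at 41.5 and 33.6, and Tfe3 at 104 and 125. Proliferating cells, led by Mki67 (1051 cells), had Gpnmb at 306 ± 185 and the lowest Mitf, 21.5. The cluster led by Elane and Hbb-bs (1482 cells in these libraries) had Gpnmb at 145 ± 119. The Gpnmb-led cluster made up 16.7% ± 9.28 of microglia in SOD1, 29.7% ± 16.2 in SOD1_Clec7aKO, 0.191% in nTg and 0.206% in Clec7aKO.

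**Figure D5:**
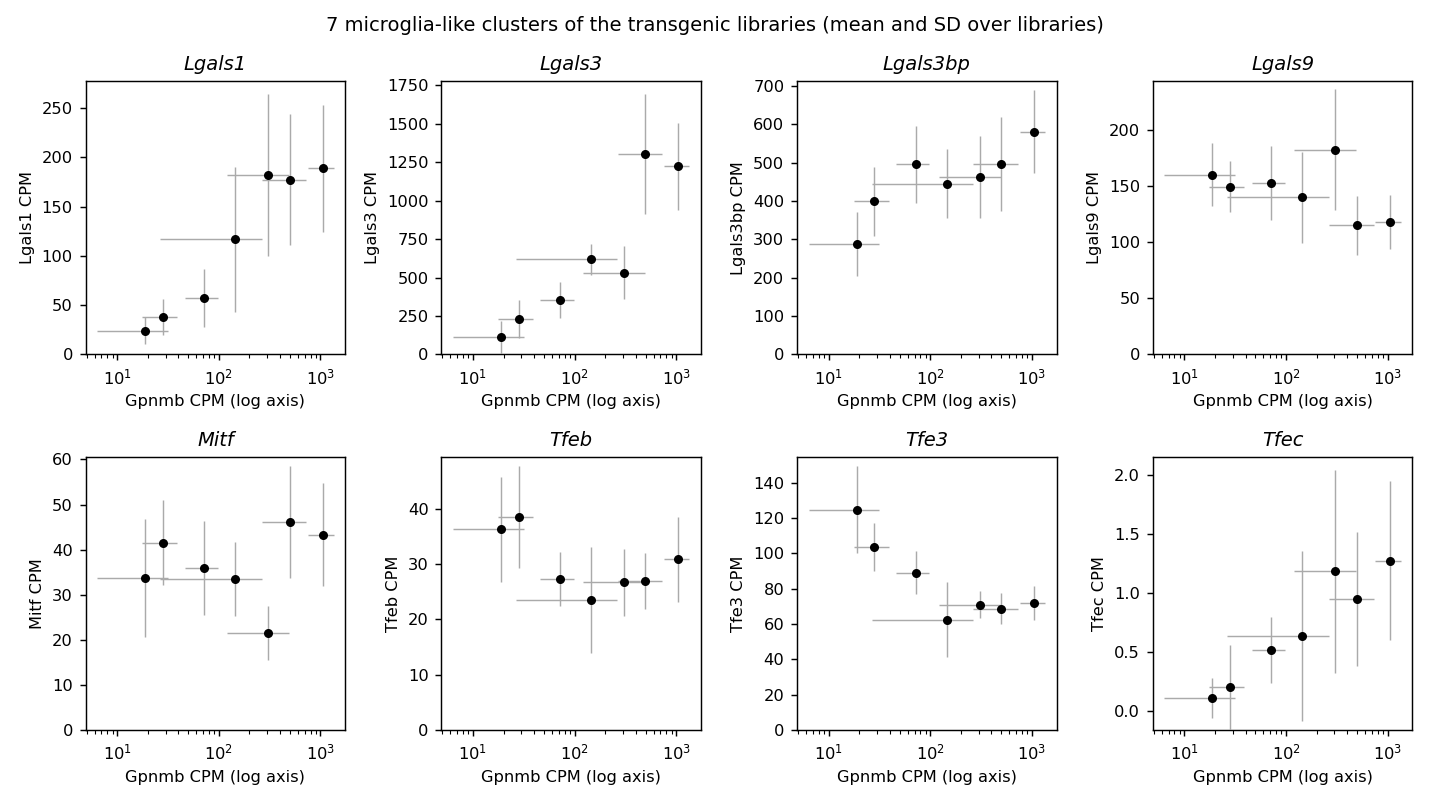
Level of each gene against that of Gpnmb over 7 microglia-like clusters of the transgenic libraries. The horizontal axis is Gpnmb CPM on a log scale, the vertical axis CPM of the named gene, points are means over libraries and whiskers SDs. Lgals1 and Lgals3 climb with Gpnmb, Tfe3 is highest in the clusters with the least Gpnmb, and Mitf shows no order.

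Over the 7 clusters of at least 100 cells, Pearson's r of log2(CPM + 5) with Gpnmb was 0.94 for Lgals1, 0.92 for Lgals3 and 0.77 for Lgals3bp. It was 0.10 for Mitf, -0.54 for Tfeb, -0.58 for Lgals9 and -0.80 for Tfe3. These clusters share their libraries, and r is a description with no p. Tfec had an r of 0.95 but averaged 0.11 to 1.27 CPM, near the limit of detection. Among 6664 genes ranked by r, Lgals1 was at place 41, Lgals3 at 68, Lgals3bp at 327, Mitf at 2225, Tfeb at 4312 and Tfe3 at 5631. The 10 genes most like Gpnmb were Anxa2 (r 0.996), Msrb1 (0.988), Il3ra (0.986), Gyg, Lrpap1, Plin3, Tmem106a, Gsn, Crip1 and Igf2r (0.976). No galectin and no MiT/TFE factor was among them.

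Over the 7 transgenic libraries, whose Gpnmb levels in microglia lay between 363 and 605 CPM, no relation of the 8 other genes to Gpnmb passed. Pearson's r of log2(CPM + 1) ran from -0.36 for Tfe3 to 0.29 for Lgals1, with exact permutation p-values of at least 0.40 and adjusted values of at least 0.94 over the 8 relations. Spearman's rho ran from -0.50 to 0.29 (exact permutation, adjusted p at least 0.81). Without the 2 libraries farthest from the median, r was -0.90 for Tfeb and between -0.43 and 0.53 for the others, and the 5 libraries left are too few for a single relation to pass after adjustment.

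The wider pathways were described in microglia between SOD1_Clec7aKO and Clec7aKO by counts and medians, beside a median log2 change of 0.00 over all genes, of which 25.6% were called higher and 21% lower. All counts and medians of lists rest on the library factors described above. They were not recounted with libraries scaled to total UMIs alone. The lists were chosen with earlier results known, so these counts beside the shares of all genes are a description. Of 45 lysosomal genes of the CLEAR network, the gene set bound by TFEB, 35 rose and 2 fell (median 1.09). Cd63, a tetraspanin of late endosomes, went from 318 ± 33.9 to 2921 ± 460.1 scaled CPM (log2 fold change 3.20, SE 0.18, adjusted p = 3.1e-08 in edgeR). Galns and the cathepsin genes Ctsd and Ctsb followed with 2.90, 2.27 and 2.22. Of 18 genes listed as autophagy genes under TFEB, 9 rose and 3 fell (median 0.33, from -2.13 to 1.55). Those named, with the largest called changes at 10 CPM or more, all rose. They were Hif1a (1.55), the LC3 relatives Gabarapl1 (1.14) and Gabarap (1.12), and the cargo receptor gene Sqstm1 (0.93). Of 29 upstream regulators of TFEB, 10 rose and 3 fell (median 0.32). The Rag GTPase gene Rragd rose most (2.92), with the folliculin partner Fnip2 (1.55) and the Ragulator subunits Lamtor4 and Lamtor5 (1.11 each).

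The smaller lists are to be read against the same 25.6% and 21% of all genes, and counts such as 1 of 4 or 2 of 13 are near or below these shares. Of 8 osteoclast genes under Mitf, 4 were called higher and 0 lower (median 0.59), with Atp6v0d2 among the 4. Atp6v0d2, a proton pump subunit of osteoclasts, went from 0.207 ± 0.21 to 19.3 ± 6.83 scaled CPM on 0 to 18 UMIs in a library without the transgene. Like Tfec it passed the filter only through libraries with the transgene, so that neither its call nor the count of 4 is read. The acid phosphatase gene Acp5 (5.25) and the chloride transporter gene Clcn7 (1.07) rose. Of 4 measured pigment genes under Mitf, 1 was called higher and 1 lower (median 0.19). The first, Mlana, had at most 3 UMIs in a library without the transgene and passed the filter only through the others, so that its call is not read. Rab27a fell by 0.89 on the log2 scale. Among 6 measured relatives and partners of Gpnmb, 3 rose and 1 fell (median 0.55): Cd44 (2.86), Sdc4 (1.43) and Adam17 (0.48) rose, and the protease gene Adam10 fell by 0.52. Of 10 galectin partners 5 rose and 2 fell (median 0.37, from -1.05 to 1.65). Those named by the same rule all rose: Cd9 (1.65), Trem2 (1.297), Lamp1 (1.28) and the integrin gene Itgb2 (1.01). Of the other galectin genes 3 were measured and 2 fell (median -0.60), Lgals8 by 0.60. Of 13 related leucine zipper factors 2 rose (Srebf1 0.44, Mlx 0.41) and 2 fell (Mxd1 by 0.50, Mnt by 0.43), with a median of 0.21.

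In cells with against cells without a Gpnmb UMI, 37 of 45 lysosomal genes rose and 2 fell (median 0.33, all genes 0.00), where 13.7% of all genes were called higher and 13.8% lower. Upstream regulators of TFEB counted 7 higher and 1 lower of 28 (median 0.05), autophagy genes 5 higher of 17 (0.11), osteoclast genes 3 higher and 1 lower of 7 (0.11) and galectin partners 5 higher and 3 lower of 9 (0.12). Gpnmb's partners counted 1 higher and 2 lower of 5, the leucine zipper factors 2 higher and 1 lower of 13, pigment genes 1 lower of 2, and the other galectin genes none of 1. Clec7a loss with the transgene called 0 genes of each of the 9 lists, near the 0.018% called among all genes.

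In other cell classes, the transgene without Clec7a went with higher Lgals1, Lgals3, Lgals3bp, Tfeb and Tfe3 in astrocytes and higher Lgals3bp in ependymal cells. Gpnmb in astrocytes, endothelial and ependymal cells stood at 1.51% to 16.2% of its microglial level in the transgenic libraries. Gpnmb in these 3 classes, Lgals9 in astrocytes and Lgals3 in endothelial cells passed the filter on low counts only through libraries with the transgene, so that they had to differ, and are given as values with no test. The summed level of the 12 microglia markers in each class, as a percentage of that in microglia of the same library, is given beside these levels. With the transgene it was 12.1% (3.88% to 25.4%) in astrocytes, 3.12% (1.79% to 5.30%) in endothelial and 3.74% (2.06% to 6.04%) in ependymal cells, and without it 1.23%, 0.656% and 1.40%. Single markers reached 111% of their microglial level in astrocytes, 8.16% in endothelial and 367% in ependymal cells with the transgene, and 29.2%, 1.63% and 104% without. In a library of these classes at most 1 of the 12 markers in endothelial cells, 4 in ependymal cells and 0 in astrocytes were at 0. The part of microglial RNA in the results that follow was not tested.

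Of the 6 other measured genes, 5 rose in astrocytes (SOD1_Clec7aKO against Clec7aKO, edgeR), where 17.8% of 12766 genes were called higher. Lgals1 was at 553, 1157, 444 and 278 scaled CPM against 72.5, 39.5, 32.3 and 26.8 (log2 fold change 3.81, SE 0.40, adjusted p = 2.5e-06). Lgals3 was at 683, 1413, 249.9 and 251 against 72.1, 4.10, 7.88 and 6.25 (4.68, SE 0.73, adjusted p = 0.00010). No library with the transgene overlapped one without for either gene, as for 11.4% of all genes higher, and SOD1_Clec7aKO_2 was highest for both. In the 7 transgenic libraries Lgals1 in astrocytes was at 469.8% of its microglial level and Lgals3 at 66.2%, above the marker percentage in 7 of 7 libraries. Gpnmb was at 115.02, 150.3, 58.9 and 52.9 scaled CPM against 6.23, 2.56, 2.36 and 3.57. At 16.2% of the microglial level it lay above the marker percentage in 7 of 7 libraries, and Lgals9, at 12.9%, in 3 of 7. Lgals3bp (1.87), Tfeb (0.71, adjusted p = 0.012) and Tfe3 (0.63, adjusted p = 0.022) also rose, and Mitf did not pass (-0.06). Without the filter on low counts Tfeb (adjusted p = 0.053) and Tfe3 (0.085) did not pass. Tfe3 passed neither without Clec7aKO_2 (adjusted p = 0.063) nor without SOD1_Clec7aKO_1 (0.079) or SOD1_Clec7aKO_2 (0.11).

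In endothelial cells 0 of the 6 other measured genes passed in edgeR, with 1 at an unadjusted p under 0.05 (Lgals3bp, which passed in DESeq2), where 0.964% of 13170 genes were called higher. Gpnmb was at 21.8, 17.4, 6.47 and 5.64 scaled CPM against 0.10, 0.08, 0 and 0.15, on 3 UMIs in all of Clec7aKO, and Lgals3 at 43.4, 56.7, 17.7 and 9.55 against 1.66, 0.50, 0.78 and 0.93, on 34 UMIs. Gpnmb was below the marker percentage in 7 of 7 transgenic libraries, at 2.33% of its microglial level. Lgals3 was at 2.94% and above the markers in 4 of 7. Lgals3bp was at 103, 122, 116 and 144 against 68.0, 70.5, 83.1 and 97.4, higher without overlap, as 3.2% of all genes (0.60, edgeR adjusted p = 0.11). It passed without Clec7aKO_4 (0.044), without the filter on low counts (0.046) and in DESeq2 (adjusted p = 0.026). In ependymal cells 1 of the 7 other measured genes rose, Lgals3bp by 3.61 on the log2 scale (edgeR adjusted p = 1.7e-05), where 1.32% of 15333 genes were called higher. Lgals9 (1.40), Lgals1 (0.79), Tfeb (0.61) and Lgals3 (0.44) were higher at an unadjusted p under 0.05 in edgeR. None of these 4 passed (edgeR adjusted p at least 0.13). Gpnmb there was at 3.76 to 13.5 against 0 to 0.07 scaled CPM, on 1 UMI in all of Clec7aKO, and below the marker percentage in 7 of 7 libraries. Lgals3bp was at 22.2, 60.5, 25.5 and 15.04 against 3.77, 1.66, 3.69 and 2.87, at 5.60% of its microglial level. Lgals3, the galectin gene that ependymal cells held in every group, differed by 0.44 (edgeR adjusted p = 0.30).

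Clec7a loss called none of the measured genes in these 3 classes. Between SOD1_Clec7aKO and SOD1, edgeR called 0 in each class, with 3 genes at an unadjusted p under 0.05 in astrocytes, 1 in ependymal and 0 in endothelial cells, and DESeq2 called 0 with 2, 1 and 0. In astrocytes these were Gpnmb (log2 difference 1.21, SE 0.33), Lgals3bp (0.73) and Lgals9 (1.23), and in ependymal cells Tfeb (0.60). Gpnmb and Lgals9 in astrocytes are again values with no test, so that their places among the 3 are not read. The SOD1 values of Gpnmb in microglia also took part in its choice. The microglia markers in astrocytes were at 15.4%, 3.88% and 5.16% of their microglial level in SOD1 and at 16.7%, 25.4%, 5.80% and 12.1% in SOD1_Clec7aKO, and their part in these differences was not tested. Over all genes of each class edgeR called 0.0157%, 0.00759% and 0.0391% in astrocytes, endothelial and ependymal cells. Without overlap were Lgals3bp in astrocytes and Tfeb in ependymal cells (higher, as 1.92% and 3.49% of all genes) and Mitf in endothelial cells (lower, as 3.14%). Between Clec7aKO and nTg, edgeR called 0 in each class with 0 at an unadjusted p under 0.05 (0%, 0% and 0.0261% of all genes), DESeq2 called 0 with 1 in astrocytes and 0 in the other 2, and Tfeb in astrocytes was higher without overlap, as 1.85% of all genes.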

How the data were processed

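The members and gene lists were chosen with earlier results of these data known. Per the labels' protocols, perfused cords were dissociated with warm enzymes, myelin was removed with beads, and libraries were made with the 10x 3' v3.1 kit. The deposited matrices hold raw UMI counts per barcode and gene, not normalized by the authors. The submitters' processing notes name Cell Ranger, Seurat, DESeq2 and the mm10 build, and versions are not given in the sources used here. No columns of other samples were present (0).

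Kept barcodes had 500 genes or more, 1000 UMIs or more and a mitochondrial share up to 15%, and doublets were marked by Scrublet scores at 0.8% per 1000 barcodes. The steps removed 7127, 4963 and 7319 barcodes. Clustering used scanpy 1.11.5 with none of the 9 genes among the variable genes, giving 23 clusters, named from fixed markers by their fold over the lower quartile of clusters. These names were rebuilt and can differ from the authors'. Cells of 1 cluster (3988), with markers of endothelium and of mural cells, stayed unnamed.

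Sums of UMIs for each class in each library were tested with edgeR 4.0.16 (R 4.3.3, TMM factors, filterByExpr, quasi-likelihood, 1 fit of 14 libraries, two-sided, Benjamini-Hochberg). This was done for microglia, endothelial cells, ependymal cells and astrocytes, each with at least 20 cells in every library. Mural cells and oligodendrocyte precursors, with at least 51 and 96 cells in every library, were not tested. Tests were fitted over all genes and checked on simulated data. The SE of a log2 fold change is its size over the square root of the F statistic, and the fitted change of genes near 0 depends on edgeR's prior count. Microglia of the 7 transgenic libraries were split by a Gpnmb UMI after thinning to 2000 UMIs, with library as a block. Correlations used exact permutations. A count of 3 UMIs was taken as the floor, 0.0353 to 0.234 scaled CPM in microglia, which covers counting error only.

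Named were all 9 members, at most 4 genes per list with the largest called change and at least 10 CPM, and the 10 genes most like Gpnmb over clusters. Alternatives were DESeq2 1.42.0, no filter on low counts, scaling without TMM (added after seeing the data), replicate block, covariates, other cell filters and clusterings, other thinning depths, and leaving out each library.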

Additional observations from a re-analysis of the deposited data

Results flagged for a closer look

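In groups of 4 libraries, 64 sets of values were screened for a library far from the other 3, and 5 stood out. Chance flags about 1 in 20 such sets. Of the 5, 4 were the library Clec7aKO_1. In its astrocytes Lgals3 was at 72.1 scaled CPM on 405 UMIs, against 4.10 to 7.88 on 7 to 20 UMIs in the other Clec7aKO libraries. In its ependymal cells Lgals3 was at 158 scaled CPM, against 95.3 to 104 in the others, and Lgals1 at 18.4, against 7.09 to 9.01. In its microglia Lgals1 was at 36.3, against 4.48 to 9.14. The fifth was Tfeb in microglia of SOD1_Clec7aKO_1, at 29.7 scaled CPM, the lowest of its group, against 40.0 to 41.8. Causes of these values were not tested.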

How the results depend on the processing

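Of 23 called results of the 9 genes, 6 passed the filter on low counts only through libraries with the transgene, and their calls say nothing about stability. Of the 17 others 12 kept their call in every alternative run, and over 368 alternatives 9 calls were lost and 0 changed sign. Of 92 results without a call, 26 of 1920 alternatives gained one. The calls lost were those of Mitf and Lgals9 in microglia without TMM, Tfe3 and Tfeb in astrocytes, and Tfe3 in the Gpnmb split. Without the filter on low counts, 5 genes were called in ependymal cells between SOD1_Clec7aKO and Clec7aKO instead of 2, 1 in astrocytes between SOD1_Clec7aKO and SOD1 instead of 0 (Gpnmb) and 1 in astrocytes between Clec7aKO and nTg instead of 0 (Lgals3). The cause was not tested. The gained call of Gpnmb is not read, since its SOD1 values in microglia took part in its choice. The counts of called members that follow include those 6 results and are thus no measure of stability. The 6 are Tfec in microglia, Gpnmb and Lgals9 in astrocytes, Gpnmb and Lgals3 in endothelial cells and Gpnmb in ependymal cells. Leaving out each library, 8 to 9 of the 9 genes were called in microglia between SOD1_Clec7aKO and Clec7aKO, 6 to 7 in astrocytes, 2 to 3 in endothelial and ependymal cells and 4 to 6 in the split. The count over all genes moved more: in endothelial cells from 135 to 78 without Clec7aKO_2, 83 without Clec7aKO_3 and 86 without SOD1_Clec7aKO_2, and in ependymal cells from 229 to 98, 111 and 95 without the same libraries and to 402 without Clec7aKO_1. Between SOD1_Clec7aKO and SOD1 it moved from 3 to 13 in microglia and from 2 to 24 in astrocytes without SOD1_1 (0 without SOD1_Clec7aKO_1), and in ependymal cells from 6 to 1 without SOD1_3, SOD1_Clec7aKO_2, SOD1_Clec7aKO_3 or SOD1_Clec7aKO_4. Between Clec7aKO and nTg it moved from 5 to 8 in microglia and from 0 to 3 in endothelial cells without nTg_1, and from 4 to 0 in ependymal cells without Clec7aKO_2. In ependymal cells Lgals9 was called without Clec7aKO_1 (adjusted p = 0.044) and Tfeb without Clec7aKO_4 (0.015). Without TMM the split called 862 genes higher and 2127 lower instead of 1358 and 1373.

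With the replicate block, 8 of the 9 genes were called in microglia between SOD1_Clec7aKO and Clec7aKO, 7 in astrocytes, and 3 each in endothelial cells (with Lgals3bp, adjusted p = 0.044) and ependymal cells (with Tfeb, adjusted p = 0.042) instead of 2. These counts too include the 6 results that passed the filter only through libraries with the transgene. They also stand without the share of all genes called with the block, and are no measure of stability. Samples of different groups share only a number: the correlation of same-numbered libraries ran from -0.17 to 0.39 over 19 pairs (10 over 0.1), and 7 of 14 libraries correlated best with their own number. Pairs with other numbers reached farther, at 0.49 for Clec7aKO_4 with SOD1_Clec7aKO_3 and -0.49 for Clec7aKO_4 with SOD1_Clec7aKO_1. The cause was not tested. The number of molecules limits Tfec, and 35 astrocytes and 28 ependymal cells in SOD1_Clec7aKO_4 limit its values there.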

Other observations

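Some cell classes had too few cells for a test in every library, and their levels are given as values in libraries with at least 20 cells. Border-associated macrophages, which sit at vessels and meninges, held Tfec at 20.3 ± 15.4 CPM in 6 libraries without the transgene and at 6.50 ± 8.05 in 7 with it, on 50 UMIs in all, against 0.219 ± 0.159 and 0.836 ± 0.433 in microglia. T and NK cells held Lgals1 at 370.5 ± 101 CPM in 7 libraries with the transgene and at 555 ± 251 in 3 without. Neutrophils reached 20 cells in 2 libraries, both of Clec7aKO, where Lgals3 was at 798 ± 7.4 CPM. With the transgene the 12 microglia markers were at 64.1% of their microglial level in border-associated macrophages and at 28.3% in T and NK cells.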
